A study of Mus musculus with 12 samples.

Results

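The effect of Fzd5 knockout on the jejunal epithelium of the mouse is described at the later of the 2 times sampled, day 3. Total RNA of intestinal epithelial cells was sequenced in 3 Fzd5KO and 3 Ctrl libraries at day 3, which are 6 of the 12 libraries of the series; the other 6 are the same genotypes at day 1. The labels give the tissue, the genotype (fzd5ko or ctrl) and the day. No source used here gives the event from which the days were counted, the deleted part of Fzd5, any promoter or Cre that drives the deletion, the strain, or the age and sex of the mice. The labels do not say that the 3 libraries of a group came from separate animals. A p-value here sets a difference of group means against the spread among libraries within groups, and that spread can be technical. Genes were kept when they reached at least 1 TPM (a level corrected for gene length, as a share of 1000000 transcripts) in at least 3 of the 6 day 3 libraries. This left 13949 of the 55421 listed genes.

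Frizzled 5 is a receptor for Wnt ligands. When a Wnt binds a Frizzled and its LRP co-receptor, beta-catenin escapes destruction, enters the nucleus and acts with TCF factors on target genes such as Axin2 and Lgr5. In the small intestine this signal is strongest at the crypt base, where Lgr5-positive stem cells sit between Paneth cells. Their progeny divide in the crypt and mature into absorptive enterocytes or into secretory goblet, enteroendocrine and tuft cells on the way to the villus.

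At day 3 the Fzd5KO libraries had lower levels of nearly all measured stem cell, Paneth cell, enteroendocrine, tuft cell, cell division and ribosomal protein genes. They had higher levels of the digestive enzymes and nutrient transporters of enterocytes, of antigen presentation and interferon-stimulated genes, and of T cell and B cell genes. Of the tested genes, 9033 (64.8%) were called: 3496 were higher (25.1% of those tested) and 5537 lower (39.7%), at an adjusted p under 0.05 by limma on log2(TPM + 1) with Benjamini-Hochberg adjustment over all 13949. Most of these changes were small. A called difference of more than 1 on the log2 scale was found for 647 genes that were higher (4.64%) and 609 that were lower (4.37%), while 4056 of the called genes differed by less than 0.5. The median difference over all tested genes was -0.14. The 3 Fzd5KO libraries did not overlap the 3 Ctrl libraries for 68% of the tested genes, higher for 26.4% and lower for 41.7%. The count of called genes in a list below is read against the 25.1% called higher and the 39.7% called lower.

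**Figure D1:**
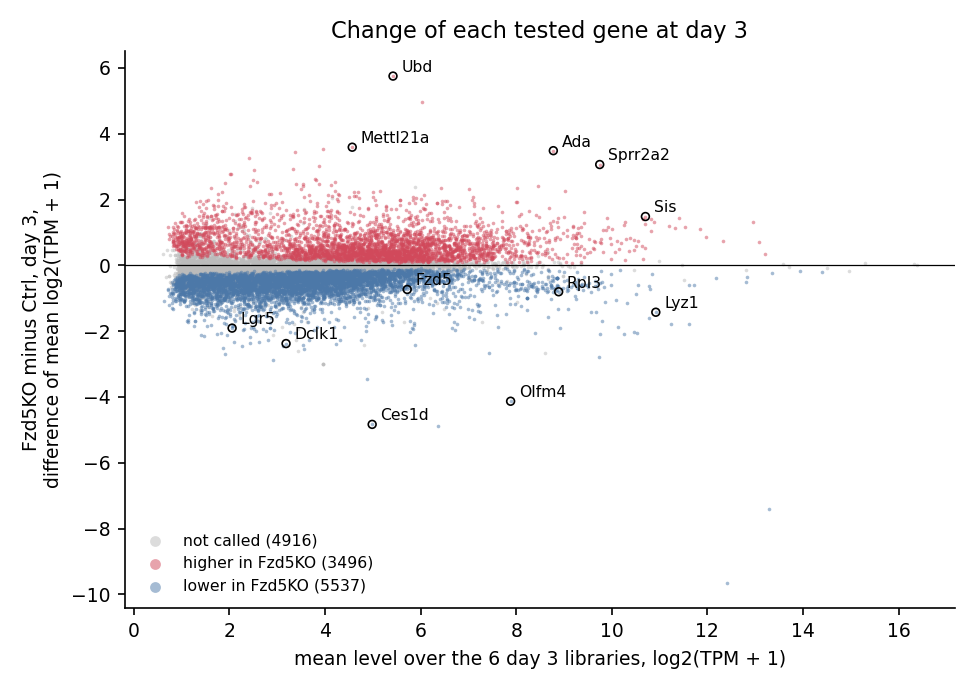
Each point is 1 of the 13949 tested genes, with its mean level over the 6 day 3 libraries in log2(TPM + 1) on the horizontal axis and the difference of the group means, Fzd5KO minus Ctrl, on the vertical axis. Red genes were called higher (3496), blue genes lower (5537) and grey genes were not called; Ubd lies highest among the labelled genes at 5.75 and Ces1d and Olfm4 lowest at -4.83 and -4.13.

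The libraries were alike within groups. Pearson's correlation of log2(TPM + 1) over the tested genes was 0.985 to 0.988 within a group and 0.941 to 0.944 between the groups, and the first principal component held 73.3% of the variance and separated the genotypes. Values were deposited as TPM, so the sequencing depth is unknown. Of the TPM, 7.03% to 7.79% in Fzd5KO and 8.37% to 9.70% in Ctrl came from the mitochondrial genome, and 21.7% to 24.3% came from the noncoding RNAs of the 7SL, 7SK, Rmrp and Rpph1 families. A ribosomal RNA gene, CT010467.1, varied widely, with 1947, 8312 and 48904 TPM in Ctrl and 13.1, 16.2 and 668 TPM in Fzd5KO. Because TPM are shares of a whole, such differences move every other gene. With quantile normalization the called genes split into 3944 higher and 4408 lower, with median-of-ratios scaling into 4516 and 4242, and after rescaling without the most abundant, mitochondrial, predicted and small RNA genes into 2848 and 6947, with all-gene medians of -0.04, -0.02 and -0.25. A list whose median lies close to these values therefore has no firm direction.

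The targeted gene was measured first. Fzd5 (ENSMUSG00000045005, chromosome 1, 64730558 to 64737751, minus strand, GRCm38) was at 68.2, 65.9 and 60.5 TPM in the Ctrl libraries and 39.7, 37.8 and 38.3 TPM in the Fzd5KO libraries. The groups did not overlap and the difference was -0.73 ± 0.05 (SE; adjusted p = 3.74e-07); an exact two-sided permutation test of the 6 values gave p = 0.1, the smallest that 3 against 3 can give. Since the deleted part is not given, the remaining TPM cannot be assigned to intact or altered transcripts. Of the 11 other tested genes within 1 Mb of Fzd5, 9 were called, against 64.8% of all tested genes. After Ubd, the 2 largest rises over all tested genes lay beside it: the long noncoding 2810408I11Rik was at 3.42, 2.87 and 3.03 TPM in Ctrl and 133, 126 and 119.8 TPM in Fzd5KO, and Mettl21a, a protein methyltransferase gene, at 2.43, 2.59 and 2.89 TPM in Ctrl and 41.6, 41 and 46 TPM in Fzd5KO. Both were already higher at day 1, at 4.26 ± 0.954 TPM (Ctrl) and 96.2 ± 5.46 TPM (Fzd5KO) for 2810408I11Rik and 2.32 ± 0.445 TPM (Ctrl) and 29.9 ± 0.359 TPM (Fzd5KO) for Mettl21a. On the same side of Fzd5, Creb1 (-0.61 ± 0.06) and Ccnyl1 (-0.59 ± 0.11) were lower, and on the other side Idh1, the cytosolic isocitrate dehydrogenase, was higher (1.12 ± 0.03 SE, adjusted p = 1.98e-10). The largest fall in this window was that of the pseudogene Rpl10a-ps1, at 1.69, 3.62 and 1.9 TPM in Ctrl and 0, 1.86 and 0.84 TPM in Fzd5KO, where the libraries of the 2 groups overlap; its call was lost without Fzd5KO replicate 1 (-0.53), Fzd5KO replicate 3 (-0.97) or Ctrl replicate 2 (-0.68).

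Stem cell genes fell as a group. All 20 genes of the intestinal stem cell list were tested; 19 were called lower and none higher, with a median of -1.58, and their summed level ranged from 942 to 1006 TPM in Ctrl and from 193 to 209.9 TPM in Fzd5KO. Olfm4, a secreted protein that marks crypt base stem cells, was at 457, 447 and 433 TPM in the Ctrl libraries and 25.7, 23.1 and 24.8 TPM in the Fzd5KO libraries. All 3 Fzd5KO libraries lay far below all 3 Ctrl libraries, and the difference of -4.13 ± 0.04 (SE; adjusted p = 8.42e-14) was the third largest fall among protein coding genes chosen by the naming rule, after Defa36 and Ces1d. Lgr5, the R-spondin receptor that defines these cells, was at 5.65, 5.75 and 5.27 TPM in Ctrl and 0.63, 1.06 and 0.59 TPM in Fzd5KO. Ascl2, a transcription factor of the stem cell, was at 5.94, 6.27 and 5.99 TPM in Ctrl and 0.24, 0.55 and 0.48 TPM in Fzd5KO. Neither gene had a Fzd5KO library above 1.06 TPM. Slc12a2, a chloride cotransporter of crypt cells, changed by -2.04 ± 0.05, and Smoc2, a secreted matrix protein of the stem cell, by -2.0 ± 0.08. The filter was passed through the Ctrl libraries alone by 4 of the 20 genes, Ascl2 among them, which had to be lower. Where no such number is given for a list below, at most 1 member passed through Ctrl alone and at most 1 through Fzd5KO alone. In bulk RNA, fewer cells of a type and less RNA per cell cannot be told apart, here and for every cell type below.

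Direct Wnt target and feedback genes were lower as well. Of the 26 listed, 15 were tested, 13 were called lower and 1 higher, with a median of -0.86, and 3 of the 15, Ascl2 and Sfrp5 among them, passed through Ctrl alone and had to be lower. Axin2, a scaffold of the beta-catenin destruction complex and itself a target, was at 49.7, 52.2 and 44 TPM in the Ctrl libraries and 15.7, 13.7 and 16.1 TPM in the Fzd5KO libraries, a difference of -1.62 ± 0.08 (SE; adjusted p = 1.4e-08) without overlap. Sfrp5, a secreted Wnt antagonist, was at 3.86, 3.32 and 3.35 TPM in Ctrl and 0, 0.05 and 0 TPM in Fzd5KO. Myc went from 19.5 to 10.4 TPM and the ubiquitin ligase Rnf43, which removes Frizzled from the membrane, from 31.2 to 19.4 TPM. The exception was Ccnd1, which encodes cyclin D1, at 34.6 ± 2.5 TPM in Ctrl and 41 ± 2.6 TPM in Fzd5KO (0.24 ± 0.06 SE, adjusted p = 0.00434).

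Other components of the Wnt pathway moved by less. Of the 5 other Frizzled genes tested, 4 were called lower: Fzd6 (-0.7 ± 0.2), Fzd4 (-0.28 ± 0.09), Fzd1 (-0.97 ± 0.12) and Fzd9 (-0.7 ± 0.13). Fzd1 and Fzd9 passed the filter through Ctrl alone, so their direction was fixed by it. The call of Fzd4 was lost without Ctrl replicate 2 (-0.23) and with quantile normalization (-0.11). The remaining one, Fzd7, was at 6.52 ± 0.553 TPM in Ctrl and 5.71 ± 0.355 TPM in Fzd5KO and was not called. All of them stood under Fzd5 in level in both groups. Of 13 co-receptor and planar polarity genes, 8 were called lower, among them the receptor kinases Ror2 (-1.22 ± 0.1) and Ptk7 (-0.99 ± 0.09) and the cadherin Celsr2 (-1.16 ± 0.13), and 1 was called higher. Ror2 and Celsr2 passed through Ctrl alone and had to be lower. All 3 tested genes for Wnt ligands and their secretion were lower: Wls, the carrier that brings Wnts to the cell surface, went from 10.9 to 4.94 TPM, the Paneth cell ligand Wnt3 from 2.81 to 1.65 TPM, and Porcn, which adds the Wnt lipid, from 1.19 to 0.517 TPM. Porcn passed through Ctrl alone and had to be lower. The core of the beta-catenin machinery did not share this direction, with 10 of 17 members called higher and 2 lower and a median of 0.21. After rescaling, 7 members were called higher and 5 lower, with a median of 0.08. In a test against a change of at least 0.5, none was called in either direction. Ctnnb1, which encodes beta-catenin, was at 297, 287 and 288 TPM in Ctrl and 329, 352 and 347 TPM in Fzd5KO (0.24 ± 0.04 SE, adjusted p = 0.000145). Gsk3a (0.5 ± 0.05) and Csnk1a1 (0.33 ± 0.05), kinases that mark beta-catenin for destruction, were also higher, and Amer1, a membrane scaffold of the pathway, was lower (-0.59 ± 0.08).

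**Figure D2:**
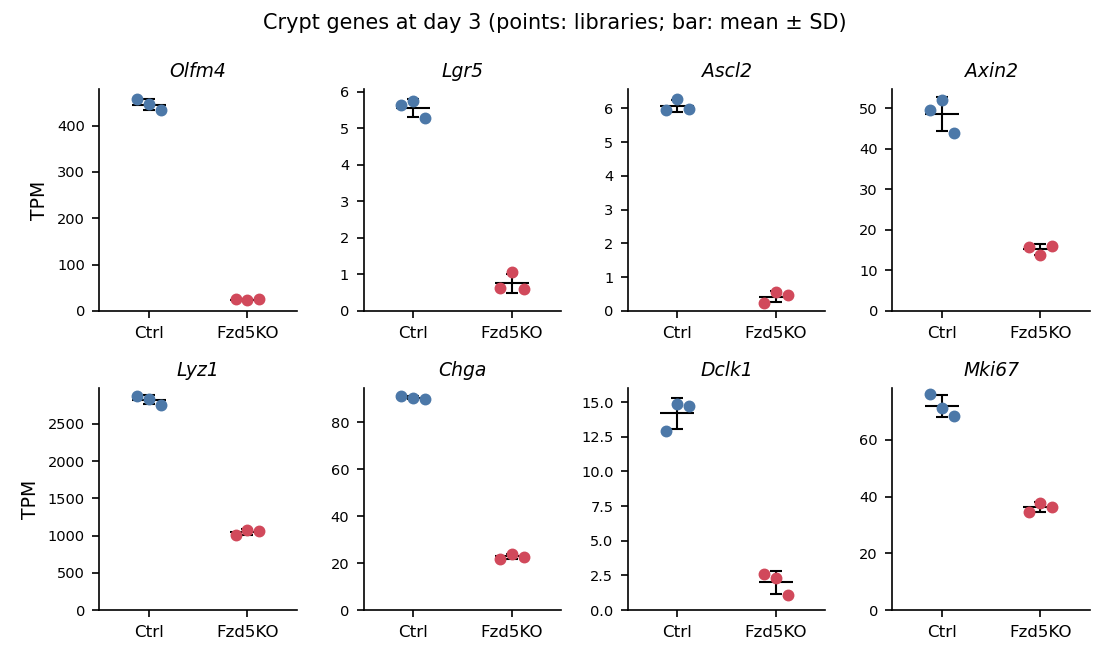
TPM of 8 crypt genes in each day 3 library, with 3 Ctrl libraries (blue) and 3 Fzd5KO libraries (red) per gene; black bars are the mean ± SD. In each panel all Fzd5KO libraries lie below all Ctrl libraries, from Olfm4 at 23.1 to 25.7 against 433 to 457 TPM to Mki67 at 34.5 to 37.9 against 68.5 to 76.1 TPM.

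Signals between crypt cells split. Among 11 tested Eph receptors and ephrins, which sort cells along the crypt axis, 5 were higher and 6 lower: Epha1 rose by 1.07 ± 0.05 and Epha2 by 0.83 ± 0.06, and Ephb4 (-1.43 ± 0.06) and Efna4 (-1.95 ± 0.12) fell. Of 14 Notch pathway genes, 8 were lower and 3 higher; the receptor Notch1 went from 12.9 to 3.19 TPM, the target Hes1 from 29.1 to 19.2 TPM, and Numb, an inhibitor of Notch, was higher (0.81 ± 0.05). BMP pathway genes were called in both directions, 6 and 6 of 19, and the list's median of 0.1 turned to -0.01 on rescaling. The ligand Bmp2 rose (1.38 ± 0.08 SE, adjusted p = 6.51e-08) and Bmp7 fell (-1.06 ± 0.12 SE, adjusted p = 1.21e-05). In the EGF receptor family 5 of 8 were higher and 1 lower. Its ligand amphiregulin, Areg, was at 4.58, 4.44 and 4.19 TPM in the Ctrl libraries and 30.4, 28.1 and 33 TPM in the Fzd5KO libraries, with every Fzd5KO library above every Ctrl library (2.54 ± 0.11 SE, adjusted p = 4.21e-09). Epiregulin (Ereg) and Hbegf differed by 1.03 ± 0.08 and 0.87 ± 0.1, while the small rise of the receptor Erbb3 (0.19 ± 0.03) turned to -0.03 with quantile normalization.

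All secretory lineages were lower, to different degrees. Of 19 tested secretory lineage factors, 16 were called lower and none higher, and 6 of the 19, Nkx2-2 and Pou2f3 among them, passed through Ctrl alone and had to be lower. Atoh1, the factor that commits cells to the secretory fate, had a difference of -0.52 ± 0.09 (SE; adjusted p = 0.000267), smaller than those of Sox4 (-1.95), the enteroendocrine factor Nkx2-2 (-1.37) and the tuft cell factor Pou2f3 (-1.16). Paneth cell genes were called lower for 23 of 24 tested and higher for 1, with a median of -1.45, and their summed level went from 23234 to 24868 TPM in Ctrl to 7558 to 8278 TPM in Fzd5KO. The alpha-defensin Defa30, a bactericidal peptide, was at 2526, 2347 and 2304 TPM in the Ctrl libraries and 547, 568 and 594 TPM in the Fzd5KO libraries (-2.07 ± 0.04 SE, adjusted p = 2.85e-11). Lyz1, which encodes the Paneth cell lysozyme, was at 2880.0, 2834 and 2759 TPM in Ctrl and 1006, 1081 and 1069 TPM in Fzd5KO (-1.42 ± 0.04 SE, adjusted p = 1.55e-10). For neither gene did the groups overlap. Alpha-defensin genes are near-identical copies, so reads can be divided among them, and Defa36 in particular was listed at 215, 171 and 40.0 TPM in Ctrl and 0, 59.2 and 0 TPM in Fzd5KO. These groups overlap, and the call of Defa36 (-4.87 ± 1.92 SE, adjusted p = 0.043) was lost without Fzd5KO replicate 1 or 3 (-3.89 each) or Ctrl replicate 1 (-4.42) or 2 (-4.58).

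Enteroendocrine genes were lower for 19 of 21 and higher for none, with a median of -1.19. Chga, the granule protein chromogranin A, was at 91.1, 90.5 and 90.1 TPM in the Ctrl libraries and 21.8, 24.1 and 22.9 TPM in the Fzd5KO libraries (-1.94 ± 0.05 SE, adjusted p = 7.94e-11), and the incretin gene Gip went from 168 to 48.2 TPM. Tuft cell genes were lower for 15 of 16 and higher for none, with a median of -1.25, and 5 of the 16 passed through Ctrl alone and had to be lower. Dclk1, a kinase that marks tuft cells, was at 12.9, 14.9 and 14.7 TPM in Ctrl and 2.63, 2.32 and 1.06 TPM in Fzd5KO (-2.38 ± 0.19 SE, adjusted p = 5.63e-07), and the taste channel Trpm5 changed by -1.75 ± 0.15. Goblet cell genes showed the smallest median of the 4 lineages, -0.72, with 21 of 23 lower and 2 higher. Spink4 went from 1764 to 794 TPM and the trefoil peptide Tff3 from 1266 to 591 TPM. The mucin Muc2, the main component of intestinal mucus, was at 2027, 2057 and 1887 TPM in Ctrl and 1601, 1734 and 1626 TPM in Fzd5KO, and its difference was only -0.27 ± 0.05 (SE; adjusted p = 0.000314).

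Genes of dividing cells were lower throughout the lists. Of 35 S phase genes 33 were called lower and none higher (median -0.88), and of 27 mitosis genes all 27 (median -0.91), without any that passed the filter through 1 group alone. Mki67, a chromatin protein present only in cycling cells, was at 76.1, 71.2 and 68.5 TPM in the Ctrl libraries and 34.5, 37.9 and 36.3 TPM in the Fzd5KO libraries (-0.97 ± 0.05 SE, adjusted p = 8.95e-09). The replicative helicase gene Mcm7 went from 48.3 to 20.5 TPM, the topoisomerase Top2a from 125 to 60.0 TPM and the spindle motor Kif11 from 25.6 to 11.6 TPM. Histone genes that are transcribed only during replication, were lower for 57 of 62 and higher for none, with a median of -1.11; Hist1h1a, a linker histone, changed by -1.27 ± 0.03.

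The mitosis genes are shown with promoter sequence because 1 short motif recurs there. The cell cycle genes homology region, TTTGAA, was searched on both strands in the RefSeq promoters (build GRCm38.p6, 250 bases before to 50 after the start of a gene). Promoters were found for 22 of the 27 mitosis genes, and 17 of these (77.3%) held the motif, compared with 14.7% of the 9453 tested genes with a promoter and 4 of 28 S phase genes (14.3%). The promoters of the 3 mitosis genes with the smallest p among those with a match follow 5′ to 3′, with the motif or its reverse complement in capitals. They lie at chr11:99024140-99024439, minus strand (Top2a), chr7:135716330-135716629, minus strand (Mki67) and chr19:37376132-37376431, plus strand (Kif11).
Top2a: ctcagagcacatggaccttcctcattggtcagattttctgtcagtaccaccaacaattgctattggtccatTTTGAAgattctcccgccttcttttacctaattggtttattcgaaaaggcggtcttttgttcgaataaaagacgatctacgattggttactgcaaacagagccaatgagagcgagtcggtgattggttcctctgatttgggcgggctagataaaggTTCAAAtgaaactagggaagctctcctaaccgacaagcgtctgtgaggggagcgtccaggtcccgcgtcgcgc
Mki67: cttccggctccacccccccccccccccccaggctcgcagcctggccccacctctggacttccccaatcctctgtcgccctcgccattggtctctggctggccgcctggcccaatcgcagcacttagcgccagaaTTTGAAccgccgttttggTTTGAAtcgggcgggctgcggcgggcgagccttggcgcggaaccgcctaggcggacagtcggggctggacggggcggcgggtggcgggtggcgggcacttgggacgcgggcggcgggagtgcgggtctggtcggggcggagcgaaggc
Kif11: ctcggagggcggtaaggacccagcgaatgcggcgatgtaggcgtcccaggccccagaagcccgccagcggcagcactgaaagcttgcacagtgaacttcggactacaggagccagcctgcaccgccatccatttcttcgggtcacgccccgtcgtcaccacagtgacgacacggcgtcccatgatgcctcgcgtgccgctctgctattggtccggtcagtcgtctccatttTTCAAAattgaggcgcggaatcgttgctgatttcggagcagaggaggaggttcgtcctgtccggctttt
A match describes the letters of this window and is no evidence that a factor was bound. The TCF motif CTTTGAT, searched in the same way, was found in 2 of 10 Wnt target promoters and in none of 11 stem cell promoters, against 3.17% of tested genes.

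Growth genes fell with them. Every one of the 77 cytosolic ribosomal protein genes tested was called lower, with a median of -0.63 that stayed between -0.49 and -0.76 under the other scalings, and their summed level went from 40074 to 42112 TPM in Ctrl to 26052 to 27005 TPM in Fzd5KO. Rpl3, a protein of the large subunit, was at 605, 593 and 606 TPM in the Ctrl libraries and 328, 351 and 355 TPM in the Fzd5KO libraries (-0.8 ± 0.04 SE, adjusted p = 3.97e-09). Of 25 genes for Myc and ribosome biogenesis, 24 were lower and 1 higher (median -0.66); the nucleolar proteins Npm1 and Fbl changed by -0.74 ± 0.04 and -0.96 ± 0.05. Mitochondrial ribosomal protein genes were lower for 49 of 77 and higher for 1, with a median of -0.24, but lower for 25 and higher for 6, with a median of -0.11, under median-of-ratios scaling. All 9 called genes of the 13 encoded in the mitochondrial genome were lower, among them the complex I subunit mt-Nd4 (-0.63 ± 0.06). Nuclear genes of the respiratory chain had no firm direction: 10 of 77 were higher and 31 lower with a median of -0.06, but 33 were higher and 6 lower with median-of-ratios scaling. The constitutive proteasome likewise had 12 of 34 higher and 4 lower, and 3 and 11 after rescaling. Single libraries moved these counts: without Fzd5KO replicate 1 only 17 respiratory genes were lower, without Ctrl replicate 1 or 2 only 20, and without Ctrl replicate 3 only 7 proteasome genes were higher.

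**Figure D3:**
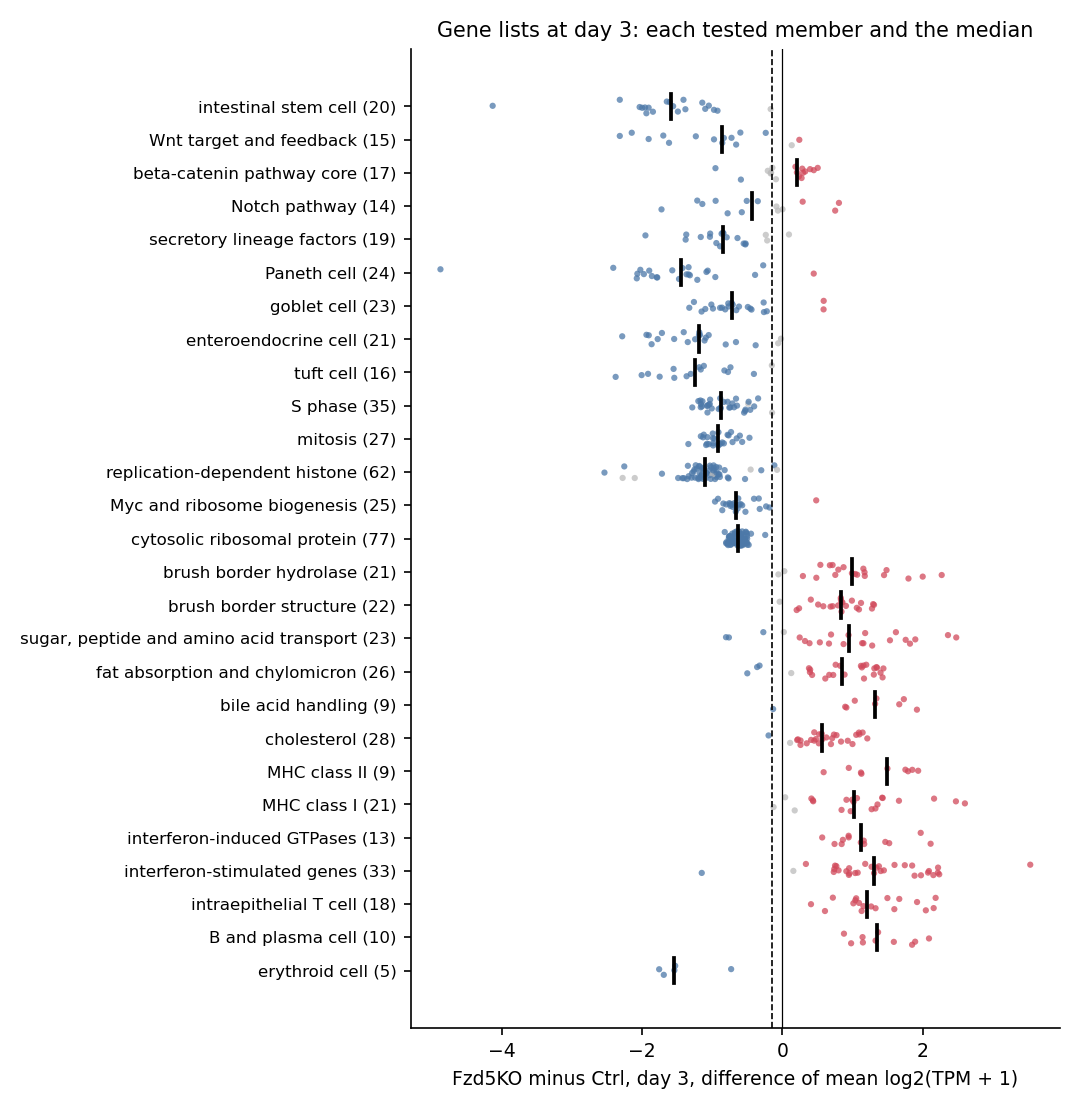
Each point is a tested member of a gene list (number of tested members in brackets), placed by its Fzd5KO minus Ctrl difference at day 3 in log2(TPM + 1); red was called higher, blue lower and grey not called. Thick bars are the list medians and the dashed line the all-gene median of -0.14; the medians run from -1.58 for stem cell genes to 1.5 for MHC class II.

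Genes of absorptive enterocytes were higher. Of 21 brush border hydrolases tested 19 were called higher and none lower (median 0.99), of 22 brush border structure genes 21 and none (median 0.84), and of 23 transporters of sugars, peptides and amino acids 19 higher and 3 lower (median 0.94). Sis, which encodes sucrase-isomaltase, was at 892, 875 and 865 TPM in the Ctrl libraries and 2387, 2539 and 2445 TPM in the Fzd5KO libraries (1.48 ± 0.03 SE, adjusted p = 2.85e-11). The sodium-glucose cotransporter Slc5a1 was at 342, 343 and 328 TPM in Ctrl and 1017, 1059 and 1041 TPM in Fzd5KO, and the fructose transporter Slc2a5 at 28.6, 26.6 and 25.8 TPM in Ctrl and 145, 142 and 140.2 TPM in Fzd5KO. In all 3 genes the groups were far apart. The peptide transporter Slc15a1 changed by 1.76 ± 0.03, the peptidase Anpep by 1.45 ± 0.04, the alkaline phosphatase Alpi by 1.17 ± 0.04 and villin, Vil1, the actin bundler of the microvillus, by 1.09 ± 0.03.

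Fat and bile acid handling rose with them. Of 26 genes for fat absorption and chylomicron assembly 22 were higher and 3 lower (median 0.86). Mttp, which loads lipid onto apolipoprotein B, was at 903, 878 and 868 TPM in Ctrl and 2273, 2378 and 2339.5 TPM in Fzd5KO (1.4 ± 0.03 SE, adjusted p = 2.85e-11), and the fatty acid binding protein Fabp1 went from 2309 to 5018 TPM. Of 9 bile acid genes 8 were higher and 1 lower (median 1.32), among them the cytosolic carrier Fabp6 (1.67 ± 0.04) and the exporter Abcc2 (1.92 ± 0.05). Cholesterol genes were higher for 26 of 28 and lower for 1 (median 0.57), with the synthesis enzymes Sqle (1.09 ± 0.04) and Hmgcs1 (0.84 ± 0.03). Fatty acid synthesis was divided, with 6 of 15 higher and 8 lower: the desaturases Fads1 (-1.87 ± 0.07) and Fads2 (-1.09 ± 0.04) fell and Scd1 (1.7 ± 0.09) rose. Glycolysis and hypoxia genes were higher for 17 of 25 and lower for 2, with Ldha (0.79 ± 0.03) and the prolyl hydroxylase Egln3 (1.69 ± 0.07). Ion and water transport genes were higher for 19 of 26 and lower for 7, the chloride channel regulator Clca4b by 1.3 ± 0.03.

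Villus tip genes were higher for 9 of 10 and lower for 1, with a median of 1.21. Ada, which encodes adenosine deaminase, was at 72.5, 74 and 66.3 TPM in the Ctrl libraries and 788, 814 and 811 TPM in the Fzd5KO libraries. No Ctrl library came near the Fzd5KO libraries, and the difference was 3.49 ± 0.06 (SE; adjusted p = 7.65e-12). Of 15 purine nucleoside genes, 9 were higher and 4 lower; the tip ectoenzyme Nt5e (2.0 ± 0.04), the nucleoside transporter Slc28a2 (2.08 ± 0.03) and guanine deaminase, Gda (2.35 ± 0.04), rose. Villus base genes were higher for 4 of 7 and lower for 2. The antimicrobial lectins Reg3b (0.81 ± 0.05) and Reg3g (0.83 ± 0.05) rose, while Reg1 was at 46.8, 53.5 and 57.5 TPM in Ctrl and 3.78, 4.49 and 3.4 TPM in Fzd5KO and Reg3a went from 111 to 40.2 TPM, so that of 5 tested Reg genes 2 were higher and 3 lower. Enterocyte transcription factors were called in both directions, 10 and 9 of 24, with a median of 0.02 whose sign depended on the scaling: Creb3l3 (1.11 ± 0.04), Maf (1.17 ± 0.05), Klf4 (1.01 ± 0.04) and Prdm1 (1.54 ± 0.11), the members with the smallest p, rose, Prdm1 passing the filter through Fzd5KO alone. The largest falls of the list, named after their values were seen, were those of Nr5a2 (-0.79 ± 0.07), a nuclear receptor, and Cdx1 (-0.71 ± 0.06), an intestinal homeobox factor.

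Enzymes of drug and ester metabolism moved individually. The carboxylesterase Ces1d had the largest fall among genes chosen by the naming rule whose groups did not overlap, at 60.3, 59.8 and 60.5 TPM in the Ctrl libraries and 1.66, 0.79 and 1.08 TPM in the Fzd5KO libraries (-4.83 ± 0.15 SE, adjusted p = 2.54e-10). Its neighbours in the family Ces1e (-1.87 ± 0.06) and Ces1g (-2.33 ± 0.09) fell too, in a list of 10 with 4 higher and 6 lower. Of 58 cytochrome P450 and conjugation genes 20 were higher and 19 lower, and the sign of their median of -0.03 depended on the scaling; 3 passed the filter through Ctrl alone and 1 through Fzd5KO alone. Cyp1a1, a target of the aryl hydrocarbon receptor, was at 7.79, 9.33 and 7.76 TPM in Ctrl and 37.6, 39.4 and 38.8 TPM in Fzd5KO, and Cyp3a11 went from 349 to 153 TPM. Other large falls were those of Afp, the fetal serum protein alpha-fetoprotein (-2.88 ± 0.11), Gkn3, a gastrokine (-2.53 ± 0.17), Sorbs2, an actin adaptor (-2.45 ± 0.15), Cdo1, cysteine dioxygenase (-2.42 ± 0.15), Clps, pancreatic colipase, a gene of the Paneth cell list (-2.41 ± 0.1), and the histone Hist1h2bq (-2.54 ± 0.76). Afp and Gkn3 passed the filter through Ctrl alone and had to be lower.

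Antigen presentation and interferon response genes were higher. All 9 tested MHC class II genes were called higher (median 1.5), as were 18 of 21 MHC class I genes (median 1.01), 13 of 13 interferon-induced GTPases (median 1.12) and 31 of 33 interferon-stimulated genes (median 1.31), where 1 was lower. Of the GTPases, 6 passed the filter through Fzd5KO alone, of the interferon-stimulated genes 3 and of MHC class II 2, and these had to be higher. H2-Ab1, a class II chain, was at 60.9, 64.7 and 59.4 TPM in the Ctrl libraries and 214, 223 and 210.3 TPM in the Fzd5KO libraries (1.79 ± 0.04 SE, adjusted p = 6.05e-11), and Cd74, the invariant chain, went from 107 to 411 TPM. The class I heavy chain H2-K1 was at 1008, 1002 and 953 TPM in Ctrl and 2549, 2749 and 2649 TPM in Fzd5KO, and the peptide transporter Tap1 changed by 1.66 ± 0.04. The antiviral enzyme Oas3 was at 7.77, 7.84 and 7.41 TPM in Ctrl and 35.5, 35 and 36.2 TPM in Fzd5KO, without overlap. Ifi44, an interferon-induced protein, had the largest rise of the interferon-stimulated list (3.53 ± 0.09 SE, adjusted p = 9.35e-11). The largest rise of the whole comparison was that of Ubd, a member of none of these lists, which encodes the ubiquitin-like FAT10. It was at 0.44, 0.48 and 0.78 TPM in the Ctrl libraries and 83.4, 79.9 and 86.4 TPM in the Fzd5KO libraries (5.75 ± 0.14 SE, adjusted p = 5.25e-11), and it passed the filter through Fzd5KO alone.

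Many promoters of these genes hold the interferon-stimulated response element, searched on either strand as GAAA, any 2 bases and GAAA. It was found in 16 of the 26 interferon-stimulated genes with a RefSeq promoter (61.5%) and in 7 of 8 GTPases (87.5%), compared with 3.64% of all tested genes with a promoter. Over all tested genes the share was 4.97% of those called higher, 3.03% of those called lower and 3.27% of those not called. Ifitm3, the interferon-stimulated gene called lower, had 2 matches. The promoters of the 3 members with the smallest p among those with a match are given in the same format as above, with the matches, some of which overlap, in capitals. They lie at chr5:120777610-120777909, minus strand (Oas3), chr5:120887564-120887863, minus strand (Oas1g) and chr4:156200769-156201068, minus strand (Isg15).
Oas3: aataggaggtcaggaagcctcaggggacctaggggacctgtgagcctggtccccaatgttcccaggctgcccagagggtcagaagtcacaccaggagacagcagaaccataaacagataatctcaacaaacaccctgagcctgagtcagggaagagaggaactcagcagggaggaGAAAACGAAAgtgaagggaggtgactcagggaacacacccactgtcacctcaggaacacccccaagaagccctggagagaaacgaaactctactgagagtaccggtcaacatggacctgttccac
Oas1g: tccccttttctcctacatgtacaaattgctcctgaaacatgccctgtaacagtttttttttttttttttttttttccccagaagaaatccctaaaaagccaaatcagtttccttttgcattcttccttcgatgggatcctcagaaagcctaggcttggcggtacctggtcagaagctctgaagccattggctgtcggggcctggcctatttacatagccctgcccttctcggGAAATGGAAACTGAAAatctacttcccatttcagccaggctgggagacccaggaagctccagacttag
Isg15: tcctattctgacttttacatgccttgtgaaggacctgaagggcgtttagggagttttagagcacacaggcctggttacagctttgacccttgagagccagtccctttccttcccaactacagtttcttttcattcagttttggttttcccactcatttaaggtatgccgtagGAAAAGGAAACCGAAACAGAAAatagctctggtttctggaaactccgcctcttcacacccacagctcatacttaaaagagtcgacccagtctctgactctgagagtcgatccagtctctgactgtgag
The most upstream match begins at -75 from the start site in Oas3, -18 in Oas1g and -78 in Isg15.

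Genes of lymphocytes moved with the same libraries. All 18 tested intraepithelial T cell markers were called higher (median 1.21), and their summed level was 63.3 to 66.7 TPM in Ctrl and 233 to 265 TPM in Fzd5KO. All 10 B and plasma cell markers were higher (median 1.35; 36.8 to 51.6 against 155 to 189.7 TPM). In each of these lists 2 members passed the filter through Fzd5KO alone and had to be higher. Gzma, the granzyme A of cytotoxic lymphocytes, was at 23.9, 21.1 and 21.9 TPM in the Ctrl libraries and 91, 99.5 and 95 TPM in the Fzd5KO libraries (2.04 ± 0.07 SE, adjusted p = 5.93e-10), and the immunoglobulin light chain Igkc at 25, 19.8 and 20.9 TPM in Ctrl and 74.3, 96.3 and 81.9 TPM in Fzd5KO. Of the 39 tested immunoglobulin and T cell receptor segments 35 were higher and none lower, but 12 of the 39 passed the filter through Fzd5KO alone and had to be higher. Igkv6-15 (2.89 ± 0.31) was one of these 12. The count of higher segments was 9 with a filter of 5 TPM and 60 without a filter, where 1 was lower. Of 10 myeloid markers 8 were higher and none lower (15.3 to 17.1 against 37.8 to 47.7 TPM), among them Csf1r, the receptor of macrophages (1.53 ± 0.19); 3 of the 10 passed through Fzd5KO alone and had to be higher. T, B and myeloid cells express MHC genes and interferon-stimulated genes themselves; the part of these cells in the MHC and interferon results was not tested. Epithelial markers were higher for 6 of 8 and lower for 2, with Epcam going from 921 to 1210.1 TPM. Fibroblast markers were not called for any of 7 and the only tested smooth muscle marker, Tagln, was not called (0.2 ± 0.22). No marker of neurons, glia or pancreatic acinar cells reached the filter, 2 of 2 endothelial markers were higher, 1 of which passed through Fzd5KO alone, and mast cell proteases Mcpt1 (1.02 ± 0.1) and Mcpt2 (0.85 ± 0.11) were higher while Kit was lower (-0.75 ± 0.1). Erythroid genes went the other way, with 5 of 5 lower and a sum of 200.7 to 228 TPM in Ctrl and 54.4 to 69.4 TPM in Fzd5KO.

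**Figure D4:**
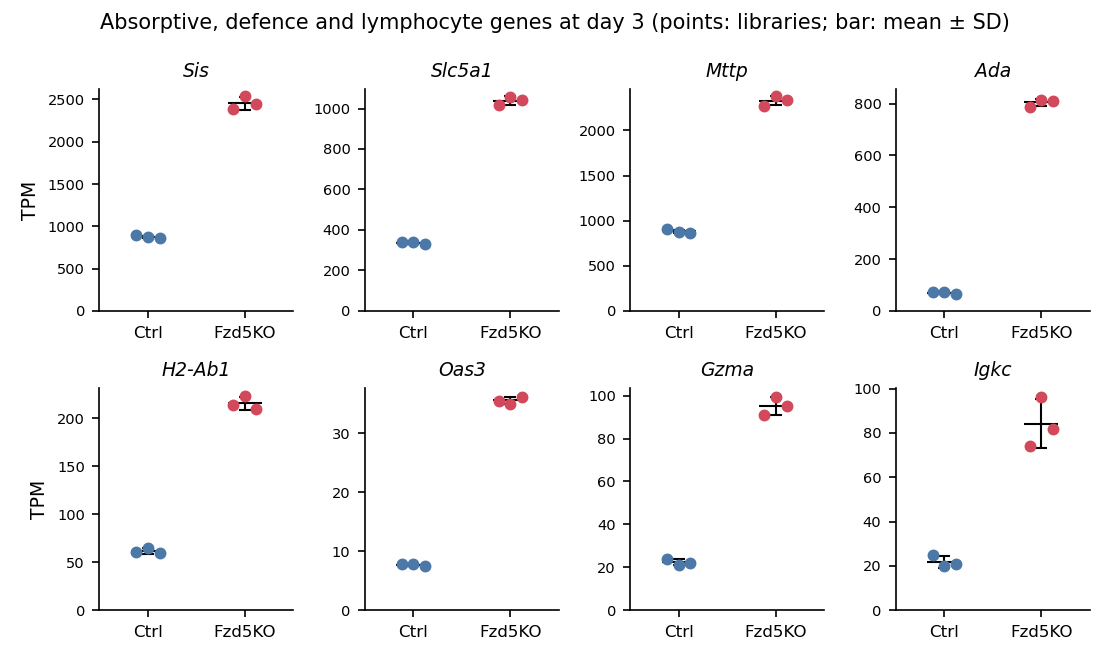
TPM of 8 genes in each day 3 library, with 3 Ctrl libraries (blue) and 3 Fzd5KO libraries (red) per gene; black bars are the mean ± SD. The absorptive genes Sis, Slc5a1 and Mttp, the villus tip gene Ada, the class II gene H2-Ab1, the antiviral gene Oas3 and the lymphocyte genes Gzma and Igkc were all higher in each Fzd5KO library than in any Ctrl library.

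Epithelial cytokines and stress genes also differed. Of 14 tested epithelial chemokines and cytokines, 12 were higher and 1 lower (median 0.82), and 2 passed the filter through Fzd5KO alone: the alarmin Il33 was at 4.5, 4.28 and 4.59 TPM in Ctrl and 30.4, 27.8 and 27.5 TPM in Fzd5KO, the chemokine Cxcl16 changed by 2.04 ± 0.07 and Btnl6, a butyrophilin-like protein recognised by gamma-delta T cells, by 0.99 ± 0.03. Of 9 genes of the fetal-like regenerative state 7 were higher and none lower. Ly6a, which encodes Sca-1, was at 1.63, 0.95 and 1.5 TPM in the Ctrl libraries and 16.5, 17.3 and 16.7 TPM in the Fzd5KO libraries (2.93 ± 0.13 SE, adjusted p = 4.66e-09), and Clu, clusterin, changed by only 0.39 ± 0.1. The 3 tested small proline-rich genes were higher, Sprr2a2 at 192, 188 and 168 TPM in Ctrl and 1497, 1602 and 1505 TPM in Fzd5KO; the Sprr2a copies are near identical, so their separate values are uncertain. Of 16 immediate early genes 10 were higher and 1 lower (median 0.52), and Fos had the largest rise of the list, 1.14 ± 0.04. Of 20 p53 targets 9 were higher and 1 lower (median 0.25, and 0.16 after rescaling). The cell cycle inhibitor Cdkn1a had their largest rise, 1.01 ± 0.05, while Perp and Ccng1 changed by 0.5 and 0.48. Of 29 genes of the unfolded protein and integrated stress responses 19 were higher and 5 lower (median 0.24, and 0.11 after rescaling). The pseudokinase Trib3 had their largest rise, 1.7 ± 0.14, while Hspa5 changed by 0.38 and Ern1 by -0.51. Cytosolic heat shock genes were lower for 9 of 13 and higher for 2, with Hsp90aa1 at -0.78 ± 0.07.

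Clock genes differed between the groups. Of 11 core clock genes 4 were higher and 6 lower. Nr1d1, the repressor REV-ERB alpha, was at 0.88, 0.86 and 0.47 TPM in the Ctrl libraries and 18.1, 18.5 and 17.2 TPM in the Fzd5KO libraries (3.46 ± 0.09 SE, adjusted p = 6.96e-11), and Arntl, its target and the activator BMAL1, at 25, 25.7 and 24.1 TPM in Ctrl and 7.15, 7.3 and 6.26 TPM in Fzd5KO (-1.72 ± 0.07 SE, adjusted p = 3.56e-09). The output factor Dbp, driven by BMAL1, was at 3.44, 2.51 and 2.64 TPM in Ctrl and 20.7, 24.7 and 23.6 TPM in Fzd5KO. Nr1d1 passed the filter through Fzd5KO alone. Among 9 output genes 4 were higher and 4 lower. At day 1 the levels were 21.2 ± 0.462 TPM (Ctrl) and 12.4 ± 0.287 TPM (Fzd5KO) for Nr1d1, 35.2 ± 0.526 TPM (Ctrl) and 29.1 ± 0.782 TPM (Fzd5KO) for Dbp and 7.24 ± 0.636 TPM (Ctrl) and 7.04 ± 0.231 TPM (Fzd5KO) for Arntl, so that the day 3 Ctrl libraries stood apart from the other 3 groups in these 3 genes. No source used here gives the hour of sampling, and its part in these or other day 3 differences was not tested. The E-box CACGTG, the site that clock activators bind, was found in 3 of 7 output promoters and 2 of 9 core clock promoters, compared with 11.8% of tested genes. The output genes with a match were Tef and Ciart, called higher, and Fkbp5, called lower. The core clock genes with a match were Cry1, called lower, and Per1, not called. Nr1d1, Dbp and Arntl had no match in this window. The output genes Tef (chr15:81802423-81802722, plus strand) and Ciart (chr3:95882179-95882478, minus strand), which changed by 0.87 ± 0.11 and 1.04 ± 0.15, are printed with the motif in capitals.
Tef: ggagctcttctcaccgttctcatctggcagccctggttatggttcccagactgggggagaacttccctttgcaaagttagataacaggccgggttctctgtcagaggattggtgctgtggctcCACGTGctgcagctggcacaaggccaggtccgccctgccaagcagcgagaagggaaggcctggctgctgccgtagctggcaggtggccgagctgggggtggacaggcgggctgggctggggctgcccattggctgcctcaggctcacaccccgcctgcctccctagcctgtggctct
Ciart: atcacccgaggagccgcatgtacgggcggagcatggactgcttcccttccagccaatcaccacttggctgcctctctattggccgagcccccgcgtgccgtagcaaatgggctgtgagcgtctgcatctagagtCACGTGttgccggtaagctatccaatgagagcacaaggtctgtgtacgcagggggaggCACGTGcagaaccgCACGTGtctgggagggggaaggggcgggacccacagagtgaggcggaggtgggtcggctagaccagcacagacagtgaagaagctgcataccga

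By class, protein coding genes were called higher for 28.1% and lower for 41.4% of 11554 tested, long noncoding or unclassified genes for 9.93% and 39.9% of 1340, and pseudogenes for 10.4% and 23.8% of 646. With quantile normalization the split of the long noncoding genes was 241 higher and 279 lower in place of 133 and 535, and 92 pseudogenes were lower in place of 154. The direction shifted with the level. Of genes with a mean under 5 TPM 14.2% were higher and 39.2% lower, of those at 100 to 1000 TPM 53.8% and 29.9%. Just inside the filter, 115 genes had a level in the third highest library between 1 TPM and 0.05 TPM above it, and just outside it 128 genes lay within 0.05 TPM below it. Of the tested genes, 342 passed through the 3 Ctrl libraries alone and 239 through the 3 Fzd5KO libraries alone.

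The day 3 effect was compared with the effect at day 1, which has its own Ctrl libraries. The difference of the effects was called for 6441 genes (46.2%), 3647 toward higher (26.1%) and 2794 toward lower (20%) at day 3; after rescaling these were 2509 and 4970. At day 1, 310 of the same genes were called higher (2.22%) and 3337 lower (23.9%). Of these, 1733 were lower and 207 higher at both days, 827 went from lower to higher and 53 from higher to lower. Stem cell genes were already lower at day 1 with a median of -0.77, and 17 of 20 had a called difference of the effects toward lower. Such a difference includes any change of Ctrl between the days. From day 1 to day 3, Rgmb went from 28.7 to 42 TPM in Ctrl and from 15.9 to 13.1 TPM in Fzd5KO. Slc12a2 went from 59.4 to 87 TPM in Ctrl and from 31.5 to 20.5 TPM in Fzd5KO. Olfm4 was at 284 ± 7.63 TPM (Ctrl) and 45.8 ± 0.27 TPM (Fzd5KO) at day 1, and its effect changed by -1.52 ± 0.06 (SE; adjusted p = 4.13e-09). Lgr5 was at 4.31 ± 0.491 TPM (Ctrl) and 0.897 ± 0.197 TPM (Fzd5KO), and the change of its effect was not called (-0.42 ± 0.18 SE, adjusted p = 0.0703). For Paneth cells the median moved from -0.18 to -1.45, with 21 of 24 differences called lower, and Lyz1 was at 3059.9 ± 139 TPM (Ctrl) and 2560.2 ± 43.8 TPM (Fzd5KO) at day 1. Ribosomal protein genes had a day 1 median of 0.02, and all 77 differences were called lower. Goblet cell genes moved little, from -0.65 to -0.72, with 7 differences called in each direction, and the difference of the effects on Muc2 was 0.52 ± 0.06 (SE; adjusted p = 5.19e-05).

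**Figure D5:**
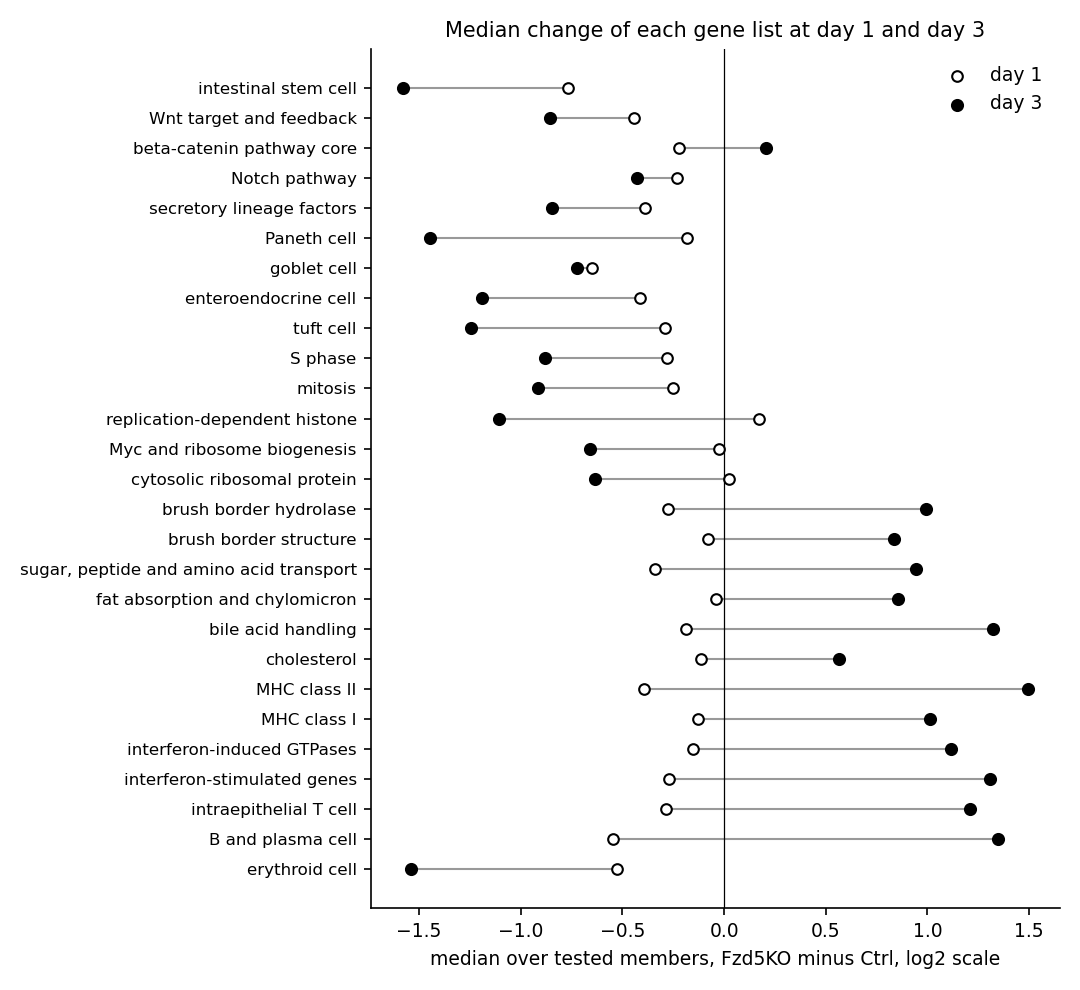
Median Fzd5KO minus Ctrl difference over the tested members of each gene list, on the log2 scale, at day 1 (open circles) and day 3 (filled circles). Stem cell genes moved from -0.77 to -1.58, cytosolic ribosomal proteins from 0.02 to -0.63 and MHC class II from -0.39 to 1.5.

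The all-gene median at day 1 was also -0.14, and list medians at day 1 were not computed under the other scalings. A day 1 list median close to -0.14 therefore has no firm direction. Several absorptive and defence lists had a negative median at day 1 and a positive one at day 3. Brush border hydrolases went from a median of -0.28 to 0.99 with 21 of 21 differences called higher, MHC class II from -0.39 to 1.5 with 9 of 9, interferon-stimulated genes from -0.27 to 1.31 with 32 of 33, and T cell markers from -0.28 to 1.21 with 17 of 18. Villus tip genes were positive at both days, going from 0.26, with 7 of 10 already called higher at day 1, to 1.21. Purine nucleoside genes, a list that shares Ada with the villus tip list, went from 0.02 to 0.28 (0.16 after rescaling). Reg genes went from -0.14 to -0.81. For these last lists the day 1 median has no firm sign. For several of these genes the level in Ctrl also differed between the days. Sis was at 2086 ± 36.3 TPM (Ctrl) and 1551 ± 23.3 TPM (Fzd5KO) at day 1, so that its day 3 Fzd5KO level of 2457 ± 76.7 TPM compares with Ctrl levels of 2086 at day 1 and 877 at day 3. H2-Ab1 was at 165 ± 8.49 TPM (Ctrl) and 109 ± 1.33 TPM (Fzd5KO) at day 1 and Gzma at 106 ± 5.63 TPM (Ctrl) and 65.4 ± 5.81 TPM (Fzd5KO); for Gzma the day 1 Ctrl level was above the day 3 Fzd5KO level of 95.2 ± 4.24 TPM. Ada, Mttp and Areg were higher in day 3 Fzd5KO libraries than in either Ctrl group, with day 1 Ctrl levels of 118 ± 11 TPM, 1143 ± 18 TPM and 11.4 ± 0.754 TPM. Ces1d was at 14.4 ± 1.66 TPM (Ctrl) and 13.6 ± 2.56 TPM (Fzd5KO) at day 1, below its day 3 Ctrl level. The labels do not say whether the day 1 and day 3 libraries were collected or sequenced together, and day and any such batch cannot be told apart.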

How the data were processed

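Total RNA of mouse jejunal epithelial cells was made into stranded total RNA libraries, per the labels' protocols. Per the submitters' processing notes, bcl2fastq 2.18, STAR 2.7.3a and RSEM were used, with build mm10; no source used here gives their settings. The deposited values are TPM per gene, normalized by the authors to 1000000 per library, so depth and counts are unknown and no count model was used. Symbols, classes and coordinates came from GENCODE M21 (GRCm38) by gene ID, with 55240 of 55421 matched.

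From the deposited TPM, log2(TPM + 1) was computed, and genes under 1 TPM in more than 3 of the 6 day 3 libraries were left out. limma 3.58.1 (R 4.3.3) fitted a mean for each of the 4 groups over all 12 libraries with an intensity trend (8 residual degrees of freedom), and p-values were adjusted by Benjamini-Hochberg over all 13949 genes. A change is a difference of group means of log2(TPM + 1), which understates the change of low genes; values with ± are SD (n = 3) for levels and SE for changes. Gene lists are described by their counts and medians, with no set test. On simulated data of 13893 genes with 200 changed, 20% of the changes of 0.25, 80% of those of 0.5 and 90% of those of 1 were recovered. Of 155 calls, 10 (6.45%) were false. The simulation used independent noise for each gene and library and changed far fewer genes than were called in the data. Its share of false calls therefore does not carry over to the data. Same-numbered libraries were not treated as pairs.

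The members and lists were chosen with earlier results of these data known. Named genes are the 10 largest rises and falls at day 3 (at least 5 TPM in the higher group, no overlap, predicted and small RNA genes left out), the 5 largest differences between days in each direction, as many as 4 called genes per list by smallest p (or, with none called, the most abundant), a set of 17 marker genes and the largest changes near Fzd5; other members named in the text, CT010467.1 and the promoter motifs were chosen after their values were seen.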

Additional observations from a re-analysis of the deposited data

Results flagged for a closer look

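The effect of Fzd5 knockout differed between day 3 and day 1 for 6441 of the 13949 genes by limma's test of the difference. Of the 245 genes chosen by the naming rule 229 had a called difference; the 42 with a difference of at least 2 on the log2 scale are given here, as the day 3 effect minus the day 1 effect. Toward higher at day 3, the defence and antigen presentation genes were Ubd 5.9, Ifi44 3.88, Oas3 2.46, Oasl1 2.19, Oasl2 2.16, Iigp1 2.29, Igtp 2.07, H2-Aa 2.61, H2-Ab1 2.39, Cd74 2.21 and H2-Eb1 2.16. The lymphocyte genes were Igkv6-15 3.25, Igha 2.73, Gzma 2.74, Igkc 2.58, Ighm 2.46 and Gzmb 2.23. Among absorptive genes the differences were 2.53 for Ada, 2.39 for Gda, 2.58 for Slc2a5, 2.2 for Abcc2, 2.17 for Slc15a1 and 2.12 for Slc2a2. The repair and stress genes were Ly6a 3.22, Sprr2a3 2.86, Sprr2a2 2.7, Areg 2.52, Il33 2.17 and Trib3 2.04, and the clock genes Nr1d1 4.18, Dbp 2.91 and Nr1d2 2.4. Toward lower at day 3 the Paneth cell genes were Defa36 -7.36, Defa-ps7 -2.54, Clps -2.06 and Defa30 -2.05, followed by Ces1d -4.74, Ces1g -2.27, Rpl23a-ps3 -2.57, Scgb2b17 -2.52, Reg1 -2.44 and Dclk1 -2.34. The difference of Defa36 was no longer called without Fzd5KO day 3 replicate 1 or 3 (-6.37 each), nor without day 3 Ctrl replicate 1 (-6.91) or 2 (-7.07), among other settings; the cause was not tested. The day 3 effect of the processed pseudogene Rpl23a-ps3 was itself not called (-0.83, adjusted p = 0.249). Its difference between days lost its call without any 1 of 6 libraries: Fzd5KO day 1 replicate 3, Fzd5KO day 3 replicate 1, Ctrl day 1 replicates 2 and 3, and Ctrl day 3 replicates 1 and 3 (-2.51 to -2.01, adjusted p = 0.0551 to 0.0674), and also without a filter (adjusted p = 0.0681).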

How the results depend on the processing

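Of the 244 named genes other than Fzd5, 202 kept their direction and call under all 25 alternatives for which they could be tested; Fzd5 ranged from -0.78 to -0.70 with 1 library left out. Vim took the value 0.19 under quantile normalization, 0.0554 under median-of-ratios scaling and -0.19 to 0.0782 over the fits that leave out a library, and Erbb3 -0.0336 under quantile normalization; the cause was not tested. Leaving out each library gave 8334 to 9038 called genes. With the replicate block 8749 genes were called, 3412 higher and 5337 lower, and 0 bile acid genes lower. Same-numbered day 3 libraries deviated together with r = 0.046, 0.03 and -0.0113. These values show no shared deviation but cannot decide whether the libraries were collected as pairs.

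Counts of list and class members that moved by more than 1.5 times are given next, with the other counts within that range; the cause was not tested beyond fewer genes tested under the stricter filter and fewer calls under the stricter test. With a test against a change of at least 0.5, the members called higher were 0 for Wnt target and feedback, Wnt co-receptor and planar polarity, beta-catenin pathway core, Paneth cell, goblet cell, cytosolic heat shock, Myc and ribosome biogenesis, mitochondrial ribosomal protein, constitutive proteasome, endothelial cell, 1 for respiratory chain (nuclear), pan-epithelial, 2 for fatty acid synthesis, carboxylesterase, core clock, 3 for Eph receptor and ephrin, BMP pathway and targets, EGF receptor family and ligands, unfolded protein and integrated stress, p53 targets, 4 for enterocyte factors, fetal-like regenerative, 6 for immediate early, 8 for cytochrome P450 and conjugation, 9 for ion and water transport, 10 for glycolysis and hypoxia, 13 for cholesterol, 22 for pseudogene, 37 for long noncoding genes and 1121 for protein coding. With a test against a change of at least 0.5, the members called lower were 0 for beta-catenin pathway core, EGF receptor family and ligands, fat absorption and chylomicron, bile acid handling, purine nucleoside handling, villus tip, cholesterol, respiratory chain (mitochondrial genome), immediate early, p53 targets, constitutive proteasome, pan-epithelial, mast cell, genes near Fzd5, 1 for Frizzled receptor other than Fzd5, Wnt ligand and secretion, glycolysis and hypoxia, respiratory chain (nuclear), unfolded protein and integrated stress, 2 for enterocyte factors, mitochondrial ribosomal protein, clock output, 3 for BMP pathway and targets, fatty acid synthesis, core clock, 4 for Wnt co-receptor and planar polarity, ion and water transport, cytosolic heat shock, 5 for Notch pathway, 8 for cytochrome P450 and conjugation, Myc and ribosome biogenesis, 12 for goblet cell, 19 for S phase, 20 for pseudogene, 39 for cytosolic ribosomal protein, 56 for long noncoding genes and 1108 for protein coding. With a filter of 5 TPM the members called higher were 0 for endothelial cell, 1 for goblet cell, 2 for myeloid cell, 4 for fetal-like regenerative, B and plasma cell, 5 for interferon-induced GTPases, 9 for immunoglobulin and T cell receptor segments, 10 for intraepithelial T cell, 32 for pseudogene and 57 for long noncoding genes. With a filter of 5 TPM the members called lower were 0 for Frizzled receptor other than Fzd5, beta-catenin pathway core, 1 for Wnt ligand and secretion, glycolysis and hypoxia, 2 for p53 targets, 4 for Wnt co-receptor and planar polarity, 6 for secretory lineage factors, 7 for tuft cell, 67 for pseudogene and 132 for long noncoding genes. Without a filter the members called higher were 0 for Wnt co-receptor and planar polarity, 1 for Wnt ligand and secretion, cytosolic heat shock, 4 for mast cell, 5 for small proline-rich, 6 for Notch pathway, 60 for immunoglobulin and T cell receptor segments, 116 for pseudogene and 259 for long noncoding genes. Without a filter the members called lower were 1 for immunoglobulin and T cell receptor segments. With quantile normalization the members called higher were 0 for Wnt co-receptor and planar polarity, 1 for cytosolic heat shock, 3 for fibroblast, 4 for constitutive proteasome, 5 for respiratory chain (nuclear) and 241 for long noncoding genes. With quantile normalization the members called lower were 0 for bile acid handling, cholesterol, 1 for brush border hydrolase, brush border structure, MHC class I, 2 for EGF receptor family and ligands, purine nucleoside handling, 8 for constitutive proteasome, 54 for respiratory chain (nuclear), 92 for pseudogene and 279 for long noncoding genes. With median-of-ratios scaling the members called higher were 1 for secretory lineage factors, 6 for mitochondrial ribosomal protein, 26 for constitutive proteasome and 33 for respiratory chain (nuclear). With median-of-ratios scaling the members called lower were 0 for bile acid handling, cholesterol, 1 for constitutive proteasome, pan-epithelial, 2 for purine nucleoside handling, 3 for enterocyte factors, unfolded protein and integrated stress, 6 for respiratory chain (nuclear) and 25 for mitochondrial ribosomal protein. After rescaling the members called higher were 0 for Wnt co-receptor and planar polarity, cytosolic heat shock, mitochondrial ribosomal protein, 3 for constitutive proteasome and 6 for respiratory chain (nuclear). After rescaling the members called lower were 1 for brush border structure, MHC class I, 2 for EGF receptor family and ligands, brush border hydrolase, 3 for p53 targets, 5 for beta-catenin pathway core, 11 for constitutive proteasome and 52 for respiratory chain (nuclear). With only the 6 day 3 libraries the members called higher were 1 for cytosolic heat shock and 2 for mitochondrial ribosomal protein. With only the 6 day 3 libraries the members called lower were 0 for bile acid handling and 1 for MHC class I. With array weights the members called higher were 0 for Wnt co-receptor and planar polarity and 1 for fibroblast. With no trend the members called higher were 0 for Wnt co-receptor and planar polarity. The test against 0.5 called 2406 genes, 1207 higher and 1199 lower, and 1474 differences between days, 1141 higher and 333 lower; rescaling gave 4970 lower differences. With each library left out the counts ranged over 0 to 1 for Wnt co-receptor and planar polarity higher, 0 to 1 for secretory lineage factors higher, 0 to 1 for bile acid handling lower, 0 to 1 for cholesterol lower, 17 to 34 for respiratory chain (nuclear) lower, 1 to 2 for cytosolic heat shock higher, 1 to 2 for p53 targets lower, 0 to 2 for mitochondrial ribosomal protein higher, 7 to 12 for constitutive proteasome higher, 0 to 1 for fibroblast higher and 0 to 1 for immunoglobulin and T cell receptor segments lower.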
